A study of Bos taurus with 12 samples.

Results

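The genes described here are those of the natriuretic peptide system. They are the 3 peptide genes NPPC, NPPB and NPPA and the 3 receptor genes NPR1, NPR2 and NPR3, followed in the endometrium of cows on days 0, 2, 7 and 14 after povidone-iodine was given into the uterus. They were found as the probes that carry one of these 6 gene names in the scanner files, which gave 10 of the 43653 probes on the array, for 6 of 15515 named genes. NPPC and NPPA have 1 probe each, and NPPB, NPR1, NPR2 and NPR3 have 2 each. Of the 10 probes, 8 passed the filter on dim probes (well above background, as the scanner software calls it, on at least 3 of 12 arrays), and the NPPA probe and 1 of the NPPB probes did not. The 6 genes were chosen by the differences between days seen in an earlier look at the same arrays. Their values are therefore a description, with no p-value.

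Povidone-iodine (PVP-I) is an iodine-releasing antiseptic. The samples were endometrial biopsies of 3 cows that the labels call fertile, and every group is made of the same 3 animals. The day 0 group (n = 3) is followed by the day 2, day 7 and day 14 groups (n = 3 each), all after PVP-I, with 1 one-colour Agilent array for each biopsy. The design text says that tissue was taken with forceps from the left and right horns in turn, so that horn may move with day, and it gives neither the horn of a sample, nor the stage of the cycle, nor whether the day 0 biopsy preceded the antiseptic. All 3 cows were treated, so that a difference between days cannot be told apart from repeated biopsy or from time alone.

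C-type natriuretic peptide (CNP), encoded by NPPC, acts mainly on NPR2, a membrane receptor whose inner part is a guanylyl cyclase and makes cyclic GMP (cGMP). Atrial (NPPA) and B-type (NPPB) natriuretic peptides are best known as heart hormones and act on NPR1, the other cyclase receptor. NPR3 binds all of these peptides, has no cyclase, and is known as the clearance receptor. CNP is known as a local signal rather than a hormone: in bone it drives growth, in vessels it relaxes smooth muscle, and in mouse ovarian follicles it holds the oocyte in meiotic arrest through NPR2.

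The peptide genes are related, so that the probe sequence bears on whether a signal belongs to one gene. The NPPC probe is shown because the largest differences between days were measured with it.
NPPC: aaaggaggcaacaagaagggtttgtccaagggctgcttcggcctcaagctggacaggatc
The file headers place the array's design on the cattle build Btau 3.1. The NPPC probe lies on the minus strand at chr2:123752217-123752276. The longest run that the NPPC probe shares, on the same strand, with a probe of any other gene on the array is 16 of its 60 bases (SH3GLB2). Probes were compared only with other probes, so a match to the rest of another gene's transcript would not be seen. The comparison therefore does not settle whether the signal belongs to NPPC alone.

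The brighter NPPB probe lies on the plus strand at chr16:38566084-38566143. The other NPPB probe lies on the opposite strand at chr16:38566007-38566066, with 17 bases between them. The NPR1 probes lie on the minus strand at chr3:18092537-18092596 and chr3:18086080-18086632. The brighter NPR2 probe lies on the plus strand at chr8:62630479-62630538, and the brighter NPR3 probe on the minus strand at chr20:43395726-43395785. For NPR2 and NPR3 the dimmer probe is shown, because it is the independent check on the brighter one.
NPR2: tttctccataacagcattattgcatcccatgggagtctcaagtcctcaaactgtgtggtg
NPR3: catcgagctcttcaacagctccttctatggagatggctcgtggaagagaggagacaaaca
The dimmer NPR2 probe lies at chr8:62626539-62626598 on the plus strand. The dimmer NPR3 probe is placed on the minus strand at chr20:43445817-43461502, so its 60 bases span 15686 bases of genome and bridge a gap, as a probe across an exon junction does. The files place the probes by gene and position, and exon and UTR labels were not used here.

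For 10 of the 12 arrays the sample a scanner file is linked to is not the one whose table column it matches, and this touches every result below. Each array was given the sample of the table column that matched its values, and under this reading each slide holds the 4 days of 1 cow, and the effects of cow and slide cannot be told apart. Day is likewise tied to position: on every slide day 0 is at position 1, day 2 at position 2, day 7 at position 3 and day 14 at position 4, so that day and position cannot be told apart. The other reading takes each scanner file's own link to a sample, called the file links here, and its values are given for the main differences of the 6 genes and for the counts of pathway genes. The share of probes well above background was between 71.3 and 76.0% on 11 arrays and 63.2% on the day 2 array of cow 3. The software marked 0 probes as saturated. Precision is limited by the number of arrays. FOXA2, HOXA10, MSX1 and PGR, which mark endometrium, were well above background on all 12 arrays, as were all 7 epithelial and all 7 stromal markers. ESR1, from the same list of endometrial markers, was well above background on 11 of 12.

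Each level below is the log2 processed signal minus the array's 75th percentile, so that 0 is the 75th percentile of that array, and 1 unit is a factor of 2. Each difference is the later day minus the earlier one on that scale, with the limma standard error (SE). A probe was called where its Benjamini-Hochberg adjusted limma p over all 33539 kept probes was under 0.05. Between days 7 and 0, limma called 18.2% of all probes and 2 of the 8 member probes, those of NPPC and the brighter NPR3 probe, both higher on day 7. Between days 7 and 2 it called 0.486% of all probes and 1 of the 8, NPPC, higher on day 7. Since the earlier look that chose the genes used the same contrasts, nothing is read from these counts.

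NPPC, the CNP gene, was lowest on day 2 and highest on day 7. Its levels on day 0 were -3.62 (cow 1), -4.37 (cow 2) and -1.55 (cow 3). On day 2 they were -7.12, -6.99 and -5.53 in the same order of cows, and none of these arrays was well above background. The day 7 levels were 2.77, 0.98 and -0.76 and those of day 14 -2.25, -2.34 and -4.16, all well above background. All 3 day 2 arrays therefore lay below, and all 3 day 7 arrays above, every array of days 0 and 14. In biopsies of whole endometrium, fewer cells of a type and less RNA per cell cannot be told apart.

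In processed intensity, the linear brightness before scaling, the NPPC probe read 5640, 1772 and 540.1 in cows 1, 2 and 3 on day 7, against 89.4, 52.2 and 338.1 on day 0. On day 2 it read 6.8, 7.5 and 17.9. Cow 3 had the highest NPPC level of the 3 cows on day 0 and the lowest on day 7.

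NPPC was 18.2-fold higher on day 7 than on day 0, a log2 difference of 4.18 ± 1.05 (SE, n = 3 cows). The difference was 6.39 in cow 1, 5.36 in cow 2 and 0.80 in cow 3, so that cows 1 and 2 carry most of the mean. The file links gave a day 7 difference of 1.69, and the days overlapped.

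On day 2 NPPC was at least 7.40-fold lower than on day 0 on this scale. The figure is a bound because no day 2 array was above background: it sets the mean of the bright day against, for each array, the higher of the dim probe's signal and the lowest signal among probes well above background. The measured difference was -3.36 ± 1.05, with -3.50, -2.62 and -3.98 in cows 1, 2 and 3, and it was -4.10 without the day 2 array of cow 3. It was -1.88 under the file links.

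From the low point, NPPC was at least 134-fold higher on day 7 than on day 2 on this scale, with differences of 9.89, 7.97 and 4.77 in the 3 cows. Under the file links, where 2 of 3 day 2 arrays were above background, that difference was 3.57 and the days overlapped. On day 14 it was lower than on day 7 in 3 of 3 cows, by a difference of -3.91 ± 1.05, and the 2 days did not overlap. Against day 0 the day 14 difference was 0.27 ± 1.05, within its error, with cows 1 and 2 higher (1.37 and 2.03) and cow 3 lower (-2.60). The file links gave day 14 differences of -2.51 from day 7, with overlap, and -0.83 from day 0. By the table's names the order of the days was thus day 2, then days 0 and 14 without a difference beyond their spread, then day 7.

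NPPB, the B-type peptide gene, did not follow NPPC. Its brighter probe was at -6.92, -3.77 and -8.78 on day 0 in cows 1, 2 and 3, and only cow 2 was well above background. Day 2 gave -1.65, -1.24 and -3.81, and day 7 gave -5.96, -1.22 and -2.35, all above background. On day 14 it was at -7.37, -6.18 and -8.10, with only cow 2 above background. The signal was thus seen in every cow on days 2 and 7, and in 1 of 3 cows on days 0 and 14.

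The day 2 difference of NPPB from day 0 was 4.26 ± 1.06, with 5.27, 2.54 and 4.97 in the 3 cows (cows 1 and 3 against day 0 signals not above background), but cow 2 on day 0 (-3.77) overlapped the day 2 range. The day 7 difference was 3.31 ± 1.06 and ranged from 0.96 in cow 1 to 6.43 in cow 3. On day 14 NPPB was lower than on the 2 days before, with differences of -4.03 from day 7 and -4.98 from day 2, and neither pair of days overlapped. Under the file links the day 2 difference was 0.72 and the day 7 difference was -0.55, so that the NPPB pattern rests on the naming of the arrays. NPPC and NPPB correlated at -0.23 over the 12 arrays, as a description of arrays that share cows.

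The other NPPB probe, on the opposite strand, lay between -8.69 and -7.31 and was above background on 0 of 12 arrays. NPPA, the atrial peptide gene, lay between -8.99 and -7.40 on 11 arrays, none above background. The 12th, cow 2 on day 14, was at -5.08 and above background, so that NPPA has a measured level in 1 of 12 biopsies. Markers of heart muscle cells were mixed: RYR2 and TNNI3 were above background on 12 arrays, TNNT2 on 2 and MYBPC3 on 1, and limma called 0 of the 2 kept markers of that list on day 7 (1 at an unadjusted p under 0.05).

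**Figure D1:**
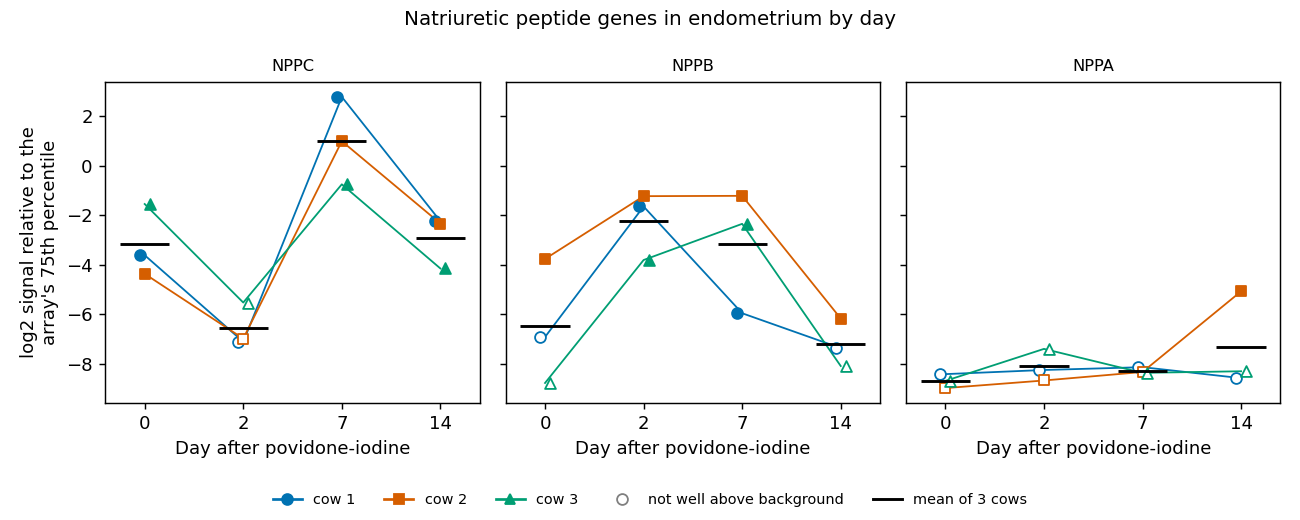
Levels of the peptide genes NPPC, NPPB (brighter probe) and NPPA by day. The vertical axis is the log2 signal relative to the array's 75th percentile, each marker is 1 array, lines join the arrays of a cow, open markers are not well above background, and bars are means of 3 cows. NPPC is open in all 3 cows on day 2 and highest on day 7, NPPB is filled in all 3 cows on days 2 and 7 only, and NPPA is filled once.

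NPR2, the cyclase receptor of CNP, had a level on all 12 arrays with both probes, and moved far less than its ligand. The brighter probe was at -0.10, 0.29 and 0.27 in cows 1, 2 and 3 on day 0. Day 2 gave -1.02, -1.05 and 0.48, day 7 gave 0.77, 0.39 and 0.83, and day 14 gave 0.34, 0.80 and 0.32. Its whole span over the 12 arrays was 1.88, against 9.89 for the span of the NPPC probe.

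On day 7 NPR2 was higher than on day 0 in 3 of 3 cows with both probes, and the 2 days did not overlap. The difference was 0.51 ± 0.36 with the brighter and 0.97 ± 0.41 with the dimmer probe, and limma called neither. On day 14 the differences from day 0 were 0.34 ± 0.36 and 0.56 ± 0.41, again without overlap. They were, under the file links, 0.60 and 0.11 on day 7 and 0.66 and 0.62 on day 14, and the days overlapped.

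On day 2 the cows split: NPR2 was lower than on day 0 in cows 1 and 2 (-0.92 and -1.34, brighter probe) and higher in cow 3 (0.21). The mean difference was -0.68 ± 0.36 with the brighter and 0.01 ± 0.41 with the dimmer probe, and the dimmer probe gave the same signs in each cow (-0.56, -0.65 and 1.26). Without the day 2 array of cow 3, the array with fewest probes above background, the differences were -1.17 and -0.49. The 2 NPR2 probes correlated at 0.86 over the 12 arrays. NPPC and NPR2 correlated at 0.73 (brighter probe) and 0.59 (dimmer probe), a description only, since the arrays share cows and days.

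NPR3, the clearance receptor, was at its highest on day 7 in cows 1 and 2 and was not above background in cow 3. The brighter probe was at -6.35, -5.75 and -7.72 on day 0 and at -5.23, -7.03 and -6.40 on day 2, with 1 of 3 arrays above background on each of these days. On day 7 it was at -0.69 and -2.22 in cows 1 and 2, and at -6.65, not above background, in cow 3. On day 14 it was at -4.64 and -3.21 in cows 1 and 2, and at -6.13, not above background, in cow 3. The dimmer probe likewise was above background in cow 3 on no day.

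The day 7 difference of NPR3 from day 0 was 3.41 ± 1.00 with the brighter probe, and 5.66, 3.52 and 1.06 in cows 1, 2 and 3. The dimmer probe gave 3.65 ± 1.18, and 6.26, 4.57 and 0.13. No day 0 array of the dimmer probe was above background, so its fold is a bound, at least 3.38-fold higher on day 7 on this scale. With normexp background correction and quantile normalization, whose offset of 50 lifts dim signals, the differences were 1.58 (brighter) and 1.17 (dimmer). The days overlapped with both probes because of cow 3, and without that cow the differences were 4.59 and 5.41. Under the file links the day 7 difference was -0.30 (brighter) and 0.04 (dimmer), so the NPR3 pattern too rests on the naming of the arrays.

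On day 14 the brighter NPR3 probe differed from day 0 by 1.94 ± 1.00, with cows 1 and 2 higher (1.71 and 2.53) and cow 3 not above background on either day. The dimmer probe, above background on no day 0 array, was at least 1.28-fold higher on day 14. On day 2 the brighter probe differed by 0.38 ± 1.00, and the dimmer probe was above background on 1 of 3 arrays, against 0 of 3 on day 0. Under the file links the brighter probe differed from day 0 by -1.72 on day 2 and -2.31 on day 14, so that both directions turned. The 2 probes, which lie in different stretches of the gene and share no run over 5 bases, correlated at 0.94 over the 12 arrays. NPR3 correlated with NPPC at 0.65 (brighter probe) and 0.52 (dimmer probe).

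NPR1, the receptor of the atrial and B-type peptides, was the flattest of the 6 genes. Its brighter probe was above background on all 12 arrays and lay between -4.22 and -3.32, a span of 0.90. Day 0 gave -4.11, -4.06 and -4.12, day 2 gave -3.82, -4.03 and -3.32, day 7 gave -3.65, -3.86 and -3.80, and day 14 gave -4.22, -3.96 and -3.75. It was higher than on day 0 in 3 of 3 cows on day 2 (0.37 ± 0.19) and on day 7 (0.32 ± 0.19), without overlap, and the day 14 difference was 0.12 ± 0.19. With arrays named by the file links the differences were -0.25 on day 2 and -0.12 on day 7, so that the direction turned, and 0.23 on day 14. The dimmer NPR1 probe was above background on 4 of 12 arrays and gave 0.16, -0.08 and -0.16 ± 0.42 for days 2, 7 and 14.

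**Figure D2:**
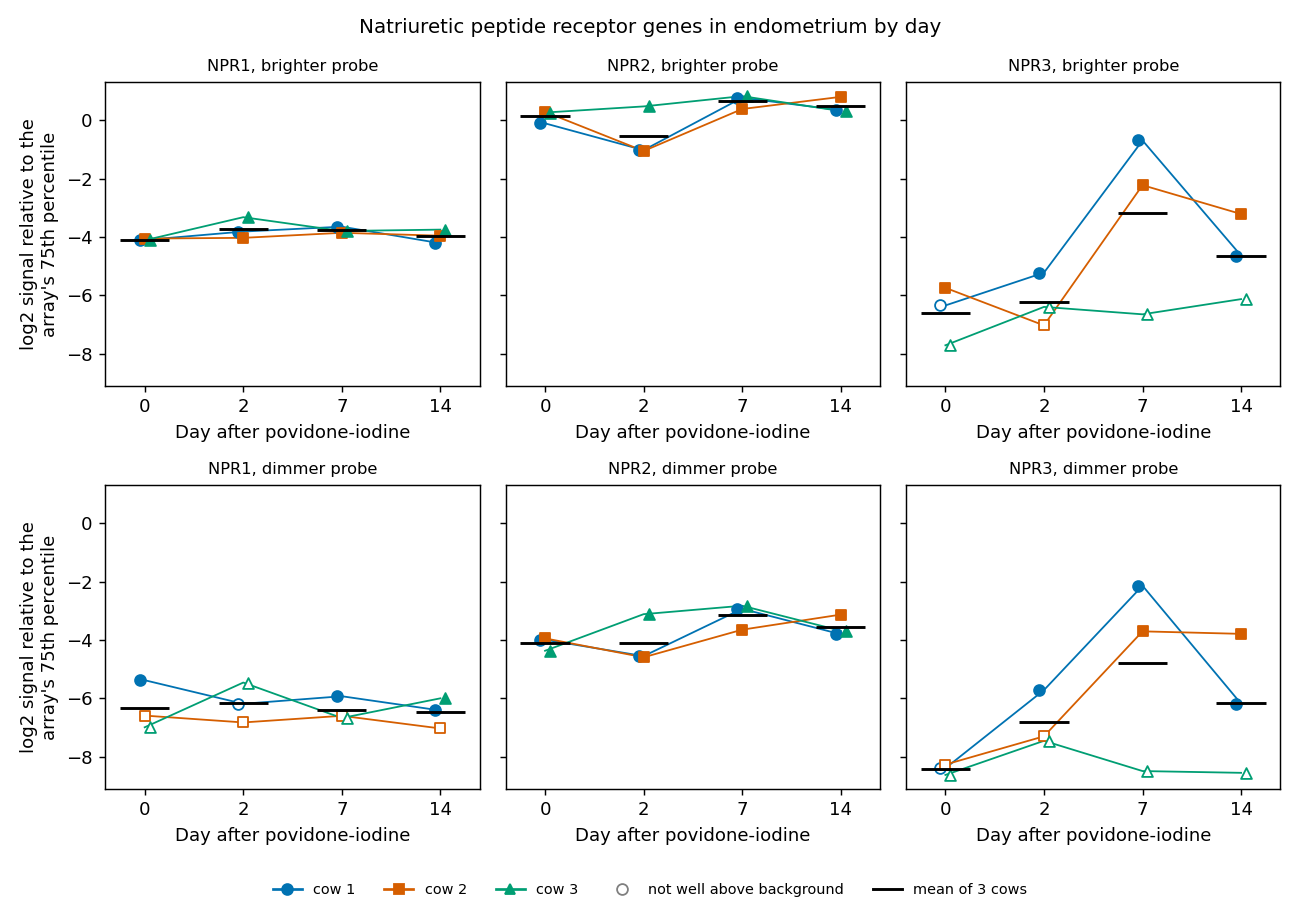
Levels of the receptor genes by day, brighter probe in the upper row and dimmer probe in the lower row. The vertical axis is the log2 signal relative to the array's 75th percentile, markers are arrays, lines join the arrays of a cow, open markers are not well above background, and bars are means of 3 cows. The NPR1 and NPR2 probes span at most 1.88, while NPR3 is high on day 7 in cows 1 and 2 with both probes and open in cow 3 on every day.

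The 3 arrays of the compared days did not overlap for 3 of the 8 member probes between days 2 and 0, against 24.4% of all probes, and for 4 of 8 between days 7 and 0, against 37.9%. For days 14 and 0 it was 2 of 8, against 25.6%. It was 1 of 8 for days 7 and 2 (20% of all probes), 2 of 8 for days 14 and 7 (20.2%) and 2 of 8 for days 14 and 2 (14%). Nothing is read from these counts, for the same reason. In the remaining 4 of the 6 comparisons limma called 0 of 8 member probes: between days 2 and 0 (2.52% of all probes called, 2 member probes at an unadjusted p under 0.05), days 14 and 0 (0.131%, 0 member probes), days 14 and 7 (0.146%, 2 member probes) and days 14 and 2 (0% of all probes, 3 member probes).

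The cows differed from each other. For NPPC, which was above background in every cow on days 7 and 0, the day 7 difference was 6.39 in cow 1 and 0.80 in cow 3. NPR3 was above background on day 7 in cows 1 and 2 and on neither day in cow 3, so that cow 3 has no measured difference. On day 0 the brighter NPR3 probe was above background only in cow 2 and the dimmer probe in no cow. The NPR3 difference of cow 1 is therefore taken against a signal that was not above background. NPPB was above background on day 7 in all 3 cows and on day 0 only in cow 2, where the difference was 2.55, and those of cows 1 and 3 are taken against signals that were not above background. With 3 animals this is a description.

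**Figure D3:**
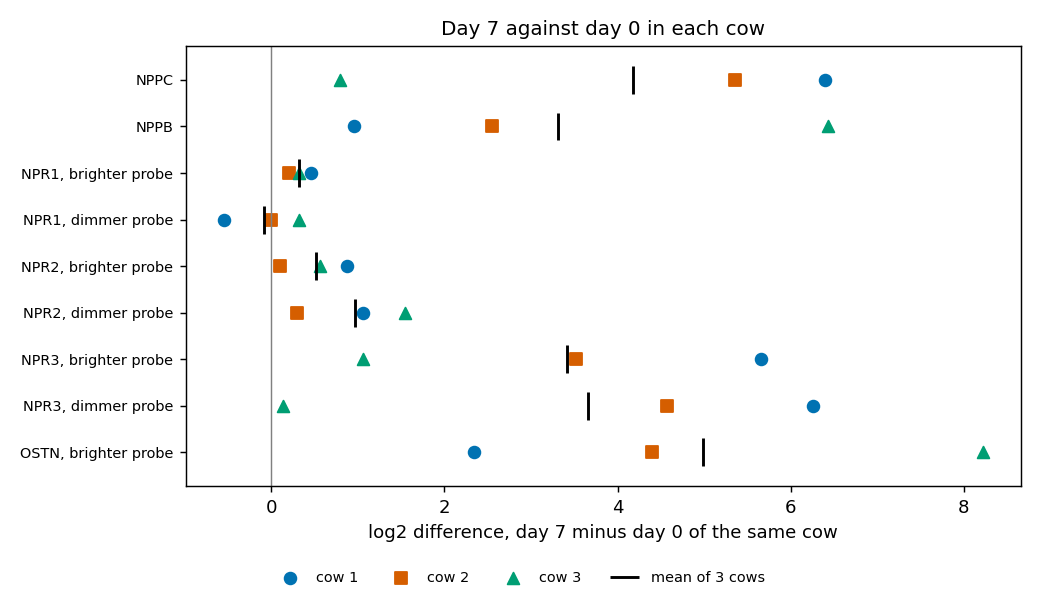
Day 7 minus day 0 in each cow, on the log2 scale, for the 8 kept member probes and the brighter OSTN probe. Each marker is 1 cow and each bar is the mean of 3 cows. For NPPC cow 3 lies at 0.80 and cows 1 and 2 at 6.39 and 5.36. Several points rest on dim signals. On day 0 NPPB, the brighter NPR3 probe and OSTN were well above background only in cow 2, and the dimmer NPR3 probe in no cow. Neither NPR3 probe was well above background in cow 3 on day 7. The dimmer NPR1 probe was well above background only in cow 1 on both days.

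Markers of other cell types moved over the same days. Day 7 against day 0, 4 of 8 smooth muscle and pericyte markers rose (ACTA2 by 1.85, ACTG2 by 2.87, DES by 1.90 and TAGLN by 3.14, limma adjusted p = 0.016, 0.010, 0.034 and 0.014), and the list's median difference was 1.80 against 0.05 for all genes. The summed level of the 8 markers, on the linear scale relative to the array's 75th percentile, was 164 to 359 on day 7, against 45.3 to 65.5 on day 0. RGS5, the pericyte marker of the list, went the other way and did not pass (-1.05 on day 7 and -1.14 on day 2, lower in 3 of 3 cows each, limma adjusted p = 0.085 and 0.142). All 8 were above background on all 12 arrays. On day 2, by the brightest probes, only ACTG2 of this list rose (2.73, limma adjusted p = 0.036), and the sum was 72.3 to 484. The other ACTG2 probes gave 3.56 and 2.45 and did not pass (limma adjusted p = 0.067 and 0.107). The brightest DES probe did not pass on day 2 (1.19, limma adjusted p = 0.218). A second DES probe of nearly the same mean level did (1.71, limma adjusted p = 0.039), and the dimmer ones did not (limma adjusted p = 0.208 and 0.251). On day 14 the sum was 65.9 to 373. By the brightest probes, ACTA2, ACTG2, DES and TAGLN were each highest in cow 3 on days 2 and 14. TAGLN was at 6.62 in cow 3 on day 2, against 3.73 and 3.18 in cows 1 and 2. On day 14 it was at 6.03 in cow 3, against 2.83 and 2.58.

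Of 7 leukocyte markers kept, 4 rose on day 7 (CD14, CD68, CSF1R and PTPRC, by 1.81, 1.42, 1.32 and 1.56, limma adjusted p = 0.026, 0.032, 0.020 and 0.005), with a summed level of 5.24 to 14.1 on day 7, against 3.14 to 3.66 on day 0. On day 2 CD68 and PTPRC rose (2.45 and 1.36, limma adjusted p = 0.021 and 0.025), and the sum was 8.42 to 8.81. CD3E and CD3G of this list went the other way on day 2 and did not pass (-0.16 and -0.12, limma adjusted p = 0.708 and 0.882). On day 7 they differed by 0.52 and 0.31 and ITGAM by 0.02, and none of these passed. The second PTPRC probe gave 0.99 on day 7 and 0.58 on day 2 and did not pass (limma adjusted p = 0.090 and 0.390). The second CD68 probe passed on day 2 (2.59, limma adjusted p = 0.040) but not on day 7 (1.62, limma adjusted p = 0.057). The dimmest CD14 probe did not pass on day 7 (1.29, limma adjusted p = 0.077). Of 8 endothelial markers, PECAM1 (1.18, limma adjusted p = 0.014) and VWF (2.04, limma adjusted p = 0.020) rose on day 7, PECAM1 also on day 2 (1.13, limma adjusted p = 0.047), and the summed levels overlapped (16.7 to 21.7 on day 7, against 16.6 to 21.7 on day 0). VWF was above background on 0 of 3 arrays on day 0 and 2 of 3 on day 7, so that it was at least 1.21-fold higher. CLDN5 of this list went the other way on day 7 and did not pass (-0.75, higher in 0 of 3 cows, limma adjusted p = 0.121). Limma called 0 of 7 epithelial and 0 of 7 stromal markers on day 7 (1 of each list at an unadjusted p under 0.05), with median differences of -0.26 and 0.44. The part of these markers in the levels of NPPC, NPPB and NPR3 was not tested.

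Around the peptides and receptors, 52 genes of the pathway were looked at in 6 lists: peptide processing, other cyclases, nitric oxide and soluble cyclase, cGMP effectors, phosphodiesterases, and regulators of CNP known from other tissues. The lists were drawn up with earlier results of these arrays known. Of the 52 genes, 39 passed the filter on dim probes, each read by its brightest probe. On day 7, 8 rose and 4 fell against day 0, where 10.9% of all 12896 genes rose and 8.32% fell, and the median difference of the 39 was 0.64, against 0.05 for all genes. On day 2, 1 rose and 1 fell (1.9% and 1% of all genes), with a median of 0.22 against 0.01. On day 14 limma called 0 of the 39 (0.109% of all genes), 10 of them at an unadjusted p under 0.05.

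Among genes that process or compete with the peptides, 1 of 6 changed on day 7. CORIN, the protease that cuts the atrial peptide's precursor, rose by 1.87 ± 0.54 (limma adjusted p = 0.046). It was above background on 2 of 3 arrays on day 7 and 0 of 3 on day 0, so that its signal was at least 1.59-fold higher on day 7. FURIN, which cuts the CNP precursor, differed by -0.24 ± 0.25 (limma adjusted p = 0.528), and MME, the endopeptidase neprilysin that degrades the peptides, by 0.61 ± 0.71 (limma adjusted p = 0.578).

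OSTN encodes osteocrin, a secreted peptide that binds NPR3 and competes with the natriuretic peptides for clearance. Its brighter probe was at -6.46, -5.63 and -6.54 on day 0 in cows 1, 2 and 3, and at -5.18, -3.14 and -6.74 on day 2. Day 7 gave -4.12, -1.23 and 1.68, above background in all 3 cows, and day 14 gave -6.73, 2.46 and -5.72. The day 7 difference of 4.98 ± 1.92 did not pass (limma adjusted p = 0.105), was positive in 3 of 3 cows, and was 5.41 with the second probe. The high arrays were cow 3 on day 7 and cow 2 on day 14, so OSTN peaked on different days in different cows.

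Limma called 0 of the 4 kept genes of nitric oxide synthesis and soluble guanylyl cyclase on day 7 (0 at an unadjusted p under 0.05), and their median difference was -0.13. GUCY2C, another membrane guanylyl cyclase, known as the gut receptor of guanylin, fell by 2.20 ± 0.35 (limma adjusted p = 0.008) and was lower than on day 0 in 3 of 3 cows. Its second probe gave -1.48 (limma adjusted p = 0.093). GUCA2A, the gene of guanylin, rose by 1.57 ± 0.46 (limma adjusted p = 0.049), though it was above background on 1 of 3 arrays on day 7 and 0 of 3 on day 0, so that it was at least 1.07-fold higher.

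Of the 8 kept cGMP effectors, 1 rose and 2 fell on day 7. VASP, an actin-binding protein that cGMP-dependent kinase phosphorylates, rose by 1.18 ± 0.20 on day 7 (limma adjusted p = 0.009) and by 0.97 ± 0.20 on day 2 (limma adjusted p = 0.046), in 3 of 3 cows each. Its second probe rose by 1.41 and 1.28. KCNMA1, the pore of a calcium-activated potassium channel that the same kinase opens, fell by 2.42 ± 0.45 on day 7 (limma adjusted p = 0.012). Its 2 other probes gave -2.26 and -1.67 and did not pass (limma adjusted p = 0.166 and 0.066).

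CNGA1, a subunit of cyclic nucleotide-gated channels, fell, with differences of -3.55 ± 0.66 on day 2 (limma adjusted p = 0.037) and -3.78 ± 0.66 on day 7 (limma adjusted p = 0.010). It was above background on 3 of 3 arrays on day 0 and on none of days 2 and 7, so its folds are at least 5.98-fold lower on day 2 and at least 7.19-fold lower on day 7. PRKG1, the main cGMP-dependent kinase of smooth muscle, differed by 0.76 ± 0.71 on day 7 (limma adjusted p = 0.482). PRKG2, the kinase through which CNP acts in growth plates, was above background on 1 of 12 arrays and was left out as dim.

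Of 10 kept phosphodiesterases and cGMP exporters, only PDE6D passed on day 7, with a rise of 0.90 ± 0.22 (limma adjusted p = 0.029). PDE6D is known as a carrier of lipid-modified proteins rather than an enzyme that breaks down cGMP. PDE5A, which does break down cGMP, differed by 0.59 ± 0.52 (limma adjusted p = 0.455).

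Of 9 kept regulators of CNP known from other tissues, 4 rose and 1 fell on day 7. ESR1 and PGR, the oestrogen receptor alpha and progesterone receptor genes, rose by 1.86 ± 0.35 and 1.74 ± 0.30 (limma adjusted p = 0.012 and 0.009), in 3 of 3 cows each. ESR2, the other oestrogen receptor gene, fell (difference -3.10 ± 0.78) (limma adjusted p = 0.030), while its 2 other probes gave -2.10 and -2.21 and did not pass (limma adjusted p = 0.088 and 0.067). The cytokine genes TNF and TGFB1 rose by 1.40 and 0.99 (limma adjusted p = 0.024 and 0.022).

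These counts depend on single cows and on the naming of the arrays. Against 12 on day 7, limma called 0 pathway genes without cow 1 (13 at an unadjusted p under 0.05), 1 without cow 2, and 0 under the file links (1 unadjusted). Against 2 on day 2, it called 0 without cow 1 (6 unadjusted), without cow 2 (7 unadjusted) and under the file links (1 unadjusted).

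**Figure D4:**
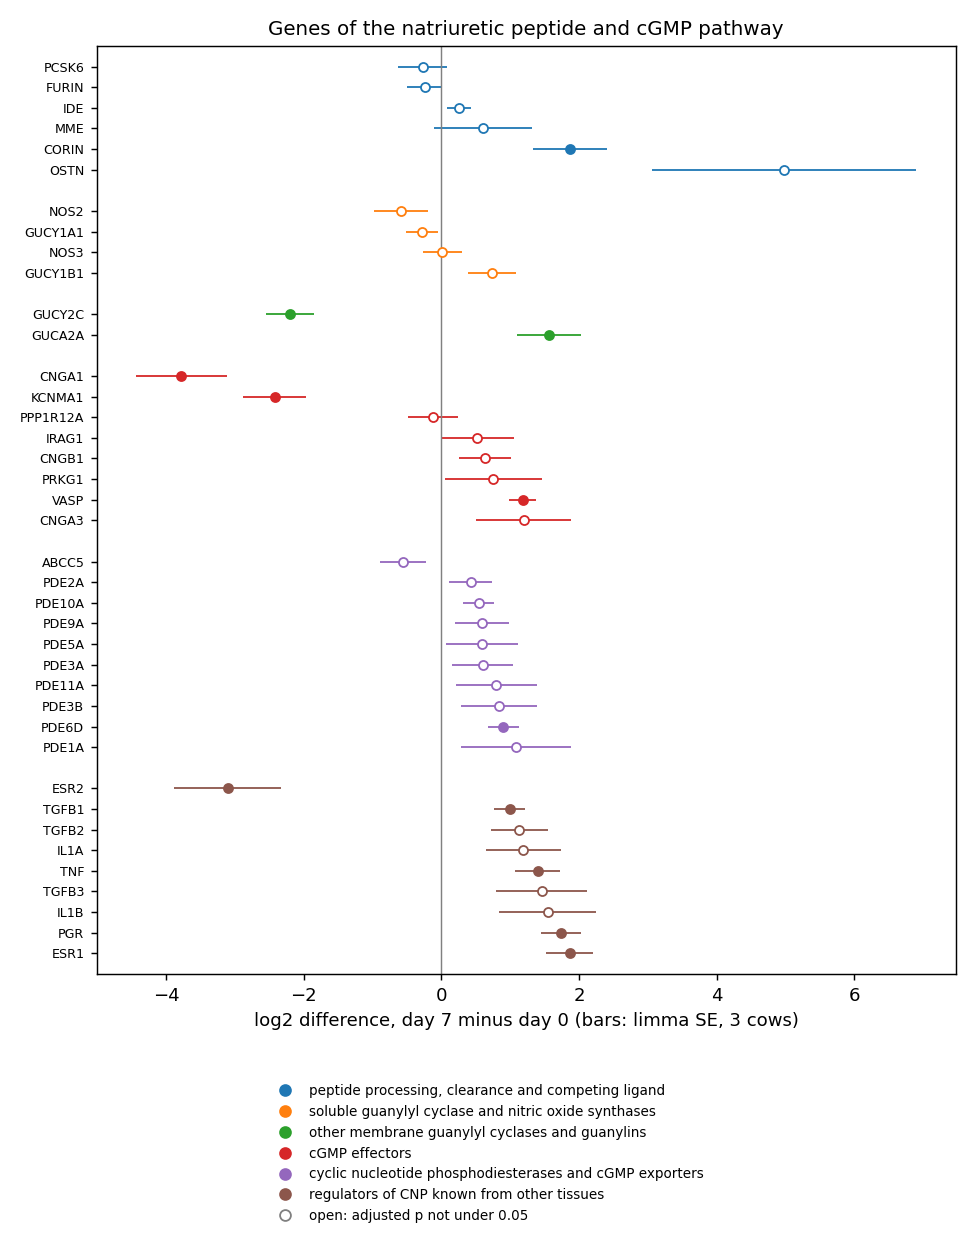
Day 7 minus day 0 (log2) for the 39 kept pathway genes, each read by its brightest probe, with bars of 1 limma SE and colours for the 6 lists. Filled markers passed an adjusted p of 0.05: 8 lie right of zero and 4 left of it. CNGA1, CORIN and GUCA2A were above background on no array of one of the days.

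Genes whose brightest probe followed NPPC most closely over the 12 arrays were sought among 10904 genes above background on every array. They were G0S2 (Pearson r = 0.93), which inhibits triglyceride breakdown, RCBTB2 (0.92), GPR137B (0.92), ANGPTL2 (0.91), a secreted angiopoietin-like protein, and TMEM59L (0.90). The 100th gene of that order still reached 0.79. The NPPC probe was above background on 9 of 12 arrays. By rank (Spearman) the values for NPPC were 0.91, 0.90, 0.89, 0.87 and 0.83 in the same order. A gene that fell to background on day 2, as NPPC did, was not among those compared. G0S2 differed from day 0 by -1.52 on day 2 and by 1.86 on day 7, and RCBTB2 by -0.22 and 0.29, so that a close correlation did not mean a difference of like size. For NPR3 they were BOLA-DQB1 (0.95), a class II histocompatibility gene, ALOX5 (0.94), which makes leukotrienes, SUSD3 (0.94), LYPD3 (0.92) and SPRED2 (0.92). The 100th gene for NPR3 still reached 0.80. The brighter NPR3 probe was above background on 6 of 12 arrays, and by rank (Spearman) the values were 0.90, 0.77, 0.77, 0.69 and 0.80 in the same order. The arrays share cows and days, and these correlations are a description.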

How the data were processed

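Total RNA of 12 endometrial biopsies was hybridised to one-colour Agilent arrays, with cyanine-3 label per the labels' protocols. Spot intensity values in the deposited scanner files were made with Agilent's Feature Extraction. The file headers give its version as 11.5.1.1 and the submitters' processing notes as 10.5.1.1. The authors also deposited a table of log2 values, by steps not given in the sources used here. Each of its columns matched 1 scanner file, after centring each probe on its median, with a correlation of 1.0 and a median absolute difference of at most 0.00311 (the next best file reached at most 0.5197). So its values are log2 processed intensity, scaled to the 75th percentile of each array and centred by probe. The medians of its columns, in cows 1, 2 and 3, were 0.01, -0.03 and -0.07 (day 0), 0.05, -0.06 and 0.03 (day 2), 0.08, -0.02 and 0.0030 (day 7), and -0.03, 0.00019 and 0.02 (day 14). Scale, centring and direction were found by this match alone. Probes at least 8-fold apart between the arrays of 1 cow and all others numbered 2, 12 and 6 (cows 1, 2 and 3) by the table and 0 by the file links, which is why arrays took the table's names. By the table the arrays of 1 cow are also those of 1 slide. The count cannot tell cow from slide, and it does not settle which naming is right.

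Processed signals were scaled to each array's 75th percentile (825 to 1119 in intensity) and log2-transformed. Left out were 1417 control spots, 31 of 43653 probes with outlier flags, and probes well above background on fewer than 3 arrays, which left 33539. Limma 3.58.1 (R 4.3.3) fitted day and cow on 12 arrays (residual df 6, prior df 2.33), and p-values were adjusted by Benjamini and Hochberg's method over the kept probes. The fit was also run on simulated data with independent errors and few changed probes. That run was a check of the code, and no result here rests on it. Cow is a block because the design text says the same animals were sampled on every day. Deviations of same-cow arrays, which also share a slide, correlated at a mean of 0.285 over 18 pairs (lowest 0.0235, 15 above 0.1).

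Probes took the current symbol of a RefSeq table (ARS-UCD2.0, names only): 20595 by their own accession, 1607 by another, 9849 by a current and 372 by an older symbol, and 11230 kept the file's name. The brightest probe stood for a gene, 12896 genes in all.

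The members, lists and rules were chosen with earlier results of these data known. Named were all members, every pathway gene called on any day, PRKG1, PRKG2, PDE5A, MME, FURIN, CORIN and OSTN, and the 5 genes most correlated with NPPC and with NPR3. Markers called on day 7 were named after their values were seen. ABCC4, GUCY1A2, HOXA11, MYH6 and CSF3R had no probe by these names.

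Alternatives were no cow block, normexp background correction with quantile normalization, quantile scaling, no filter and a stricter one, only the days compared, the file links, the deposited table, and leaving out each cow or the day 2 array of cow 3 (the last chosen after seeing the data).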

Additional observations from a re-analysis of the deposited data

How the results depend on the processing

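Without the replicate block, that is without cow, the pathway genes called numbered 1 on day 2 and 10 on day 7, against 2 and 12 with it, and 0 on day 14 in both (10 at an unadjusted limma p under 0.05 in each). Day 2 had 1 such gene with quantile scaling, with no filter or without the day 2 array of cow 3, and 0 with only the days compared (15 at an unadjusted limma p under 0.05) or under the file links (1 unadjusted). Day 7 had 4 with only the days compared and 0 under the file links (1 unadjusted). Leaving out 1 cow gave 0 to 1 on day 2 (6, 7 and 15 unadjusted) and 0 to 11 on day 7 (13, 16 and 19 unadjusted), and these fits have fewer residual degrees of freedom. The NPPC difference on day 2 was -1.39 with normexp, whose offset of 50 lifts dim signals, -1.88 under the file links and -4.10 without the day 2 array of cow 3. Leaving out 1 cow gave NPPC -3.74 to -3.06 on day 2, 3.08 to 5.88 on day 7 and -0.61 to 1.70 on day 14. With normexp the day 7 differences were 3.32 for NPPC, 1.43 for NPPB and 1.58 and 1.17 for the NPR3 probes, and NPPB on day 2 was 1.88. The brighter NPR3 probe turned to -0.30 on day 7 under the file links, and its day 14 difference was -2.31. The file links change only the day and cow given to each array. The array at -0.69, cow 1 on day 7 by the table, is cow 3 on day 0 by the links. Under the file links limma called 0 probes on days 2 and 7 (338 and 1775 unadjusted) and 237 on day 14. Without cow 1 limma called 0 probes on day 7 (6702 unadjusted), without cow 2 213, and without cow 3 6215. Of the other single-probe values, 226 stayed within 1 SD over cows and 16 moved further. Signal over background limits NPPC on day 2, NPPA on 11 arrays and NPR3 in cow 3.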

Other observations

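A probe without a gene symbol, whose description in the scanner files cites a partial match to the mouse CNP precursor, is not counted among the NPPC probes. Its log2 level lay between -3.10 and -2.09 on the 12 arrays, above background on all of them, and so spanned far less than the NPPC probe. It was at -2.09, -2.19 and -2.22 on day 0 in cows 1, 2 and 3, and at -2.33, -2.14 and -2.80 on day 2. Day 7 gave -2.48, -2.79 and -2.63, lower than day 0 in every cow, where NPPC was higher. Which transcript this probe measures was not tested.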
